A study of Mus musculus with 8 samples.

Results

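Cck, which encodes the peptide hormone cholecystokinin, and its 2 receptor genes Cckar and Cckbr were followed in RNA-Seq of pancreas tissue from 8 male mice. The 3 genes were taken by symbol from a table of 15047 genes, and 2 of them, Cck and Cckar, were analysed. Cckbr (chromosome 7 of GRCm38, 105425731 to 105470898, plus strand) was not analysed here. The LFD group (n = 3) and the HFD group (n = 3) were wild-type C57BL/6 mice that received a low-fat diet or a high-fat diet with 60% of its calories from fat, for 10 weeks from the age of 4 weeks. The ob/ob group (n = 2) were C57BL/6J mice that lack leptin in all their own cells, for which the same starting age of 4 weeks is given, and ate normal chow. The study's methods add that the sequenced mice carried orthotopic transplants of mT organoids, grown from pancreatic tumours of genetically engineered mice that carry Pdx1-Cre. The sample labels name only the pancreas, and which part of it was taken is not given in the sources used here. All 3 groups carried the transplant, so host tissue and organoid-derived cells can be mixed in every library. The paper reports higher engraftment and growth of mT organoids in obese than in lean mice. The share of organoid-derived cells may thus differ between groups, and it was not measured here. The age at sampling is not given in the sources used here.

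Cholecystokinin is released by I cells of the small intestine after a meal and by neurons, and it is also known from beta cells of obese mice, where it has been linked to pancreatic cancer. Its precursor is cut by prohormone convertases, sulfated on tyrosine and amidated before it is active. The receptor encoded by Cckar binds sulfated cholecystokinin with high affinity and, in rodent acinar cells, couples through Gq and phospholipase C to calcium release, protein kinase C and the secretion of digestive enzymes. The receptor encoded by Cckbr also binds gastrin and is best known from the stomach and brain. Gastrin was a component of the medium in which the organoids were grown before transplantation.

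Values are rlog values, that is, gene counts put on the log2 scale by the authors with DESeq2, corrected for library size and shrunken between samples where reads are few. No depth is known for these libraries, so errors come from the spread between mice alone. Differences were tested with limma over all 15047 genes, with Benjamini-Hochberg adjustment, and "obese" is the mean of the HFD and ob/ob groups in that fit. The tissue in the labels was checked against 30 acinar genes, whose mean rlog value was between 13.55 and 17.55 in the 8 mice. HFD replicate 3 stands apart from all other libraries in genes of intestinal epithelium. The mean of 8 such markers was 10.01 in HFD replicate 3 and between 4.59 and 5.94 in the other 7 mice, and results that rest on HFD replicate 3 are given with and without it. In bulk tissue, fewer cells of a type and less RNA per cell cannot be told apart.

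Cck lies on chromosome 9 (121489824 to 121495694 of GRCm38, Gencode M21, minus strand, identifier ENSMUSG00000032532.7, 6 annotated transcripts) and Cckar on chromosome 5 (53697776 to 53707705, minus strand, ENSMUSG00000029193.7, 3 annotated transcripts). A promoter entry was found for 1 of the 2 analysed genes, Cck. Because Cck transcription is classically described through E-box-binding and CREB-family factors, whose genes are counted further on, the 250 bases before its start site are printed here (RefSeq, GRCm38.p6, chr9:121495695-121495944, minus strand, 5′ to 3′). Capitals mark the letters CACGTG and CGTCA.
Cck promoter: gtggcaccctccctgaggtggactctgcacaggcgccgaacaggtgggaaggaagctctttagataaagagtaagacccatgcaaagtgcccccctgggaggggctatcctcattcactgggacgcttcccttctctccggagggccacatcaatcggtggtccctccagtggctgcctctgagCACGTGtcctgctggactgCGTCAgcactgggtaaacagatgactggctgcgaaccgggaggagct
Both strands were searched. The palindrome CACGTG, a form of the E-box, stands at bases -66 to -61 from the start site, and 6.02% of 32851 promoters of the same length hold it. The letters CGTCA, the core of a cyclic AMP response element, stand at -47 to -43 on the sense strand, and 17.8% of promoters hold them. The wider E-box pattern CANNTG, which includes CACGTG, was found at 3 places and in 66.2% of promoters, and the GC box GGGCGG at 0 places and in 32.7% of promoters. These matches describe letters only.

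To see whether the receptor of the acinar cell differed with obesity, Cckar was compared between groups. Cckar was abundant in lean pancreas and lower in all 5 obese mice. Its rlog value was 12.30, 12.26 and 12.46 in LFD replicates 1 to 3. The 3 HFD mice had 12.15, 10.45 and 8.43, and ob/ob replicates 1 and 2 had 11.60 and 8.93. The highest obese mouse, HFD replicate 1, was below the lowest LFD mouse by less than the range of the LFD mice, whereas HFD replicate 3 and ob/ob replicate 2 were 14.9-fold and 10.6-fold lower than the LFD mean on the rlog scale. HFD replicate 2 was 3.71-fold and ob/ob replicate 1 was 1.66-fold lower. LFD mice averaged 12.34 ± 0.11 (SD, n = 3), HFD mice 10.34 ± 1.86 (SD, n = 3) and ob/ob mice 10.27 ± 1.89 (SD, n = 2), so that HFD and ob/ob are next to each other in the order of levels and differ by less than their spread.

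On the log2 scale, Cckar differed by -2.03 in obese against LFD mice (standard error 0.82, unadjusted p = 0.0371, adjusted p = 0.176 with limma). No gene had an adjusted p-value under 0.05 in this comparison (0% of 15047 genes), while 10.9% of all genes were lower and 14.5% higher in obese mice with an unadjusted p-value under 0.05. The LFD mice lay above all 5 obese mice, which gives p = 0.0357 in a two-sided exact permutation test of Cckar alone, the smallest p that 5 mice against 3 allow. Obese and LFD mice were separated in the same direction for 9.05% of all genes, and in the opposite direction for 9.4%, so this separation is common in these libraries. Taken alone, HFD differed from LFD by -1.99 (standard error 0.91, adjusted p = 0.268 with limma) and ob/ob from LFD by -2.07 (standard error 1.02, adjusted p = 0.297). These comparisons share the LFD mice. The difference between ob/ob and HFD was -0.08 (standard error 1.02, adjusted p = 1.00 with limma). No gene was called in these comparisons either (0%), where 2985, 2831 and 588 genes had an unadjusted p-value under 0.05 for HFD against LFD, ob/ob against LFD and ob/ob against HFD. The call of Cckar depended on the mice included and on the setting. Without HFD replicate 1 the obese difference was -2.48 (adjusted p = 0.0304 with limma) and the HFD difference -2.90 (adjusted p = 0.0370). In these fits 3326 and 2812 of the 15047 genes were called, so the call was not particular to Cckar. With array weights, which weight each mouse separately, Cckar was also called. Its adjusted p-values were then 0.0224 for obese and 0.00714 for HFD mice (limma), where 4286 and 6656 genes were called. In these fits HFD replicate 2 had a weight of 9.36, against 0.27 and 0.53 for HFD replicates 1 and 3. The HFD mean thus rested mostly on HFD replicate 2. Without ob/ob replicate 2 the obese difference was -1.36, and without HFD replicate 3 the HFD difference was -1.04.

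**Figure D1:**
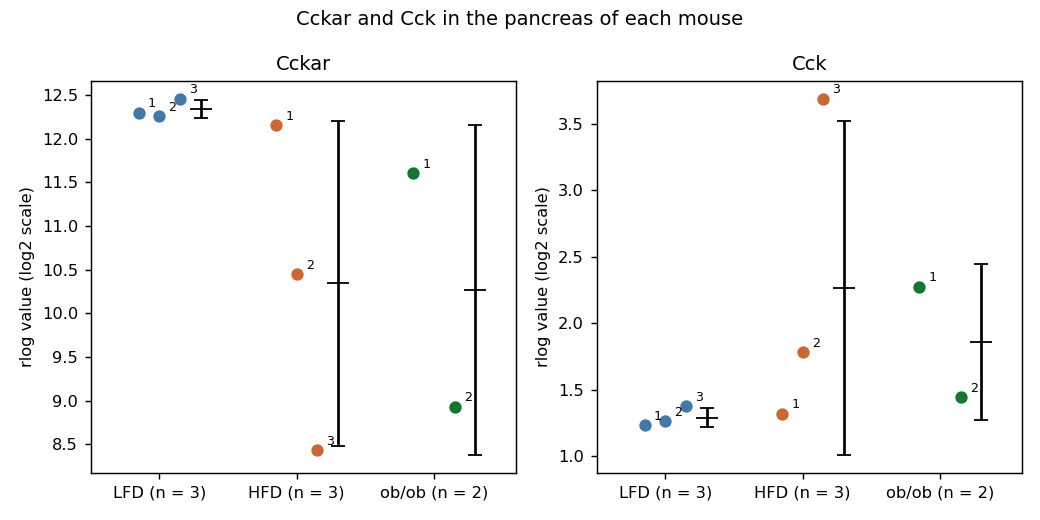
rlog value (log2 scale) of Cckar (left) and Cck (right) in each mouse, with the replicate number beside each point and the group mean ± SD as a black bar. All 5 obese mice are below the 3 LFD mice for Cckar, and HFD replicate 3, at 3.69, is the highest mouse for Cck.

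Set beside the acinar content of the same mice, Cckar varied closely with it. The acinar list holds 30 digestive enzymes and other acinar products, and its mean rlog value was 17.01, 17.34 and 17.55 in LFD replicates 1 to 3, 17.37, 15.41 and 13.55 for the HFD mice in the same order, and 16.71 and 13.86 for the ob/ob mice. Both measures are high in the LFD mice, in HFD replicate 1 and in ob/ob replicate 1, and lowest in HFD replicate 3 and ob/ob replicate 2. Across the 8 mice, Pearson r was 0.995 (exact permutation p = 0.000496, adjusted to 0.00298 for 12 relations), and by rank the Spearman rho was 0.905 (exact permutation p = 0.00456, adjusted p = 0.0183). Without HFD replicate 3 and ob/ob replicate 2, the mice farthest from the median, r was 0.976, and among the 5 obese mice alone it was 0.998. The slope was 0.99 log2 units of Cckar per log2 unit of the acinar mean. The points share their library, its depth and its scaling.

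The rlog value of Cckar minus the acinar mean had a narrow range. It was -4.72, -5.08 and -5.09 in LFD replicates 1 to 3, -5.22, -4.97 and -5.12 for the HFD mice, and -5.11 and -4.93 for the ob/ob mice. The groups overlap. The mean was -4.96 ± 0.21 (SD, n = 3) in LFD and -5.07 ± 0.12 (SD, n = 5) in obese mice, a difference of -0.11 (standard error 0.13, two-sided exact permutation p = 0.393). With the acinar mean as a covariate in limma, the obese difference of Cckar was -0.19 (standard error 0.15, adjusted p = 0.700). Quantile normalization, which gives genes of the same rank the same value in every mouse, widened the difference from the acinar mean to -1.18 (exact permutation p = 0.0357).

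Of the 30 acinar genes, 29 were lower in obese mice. With limma, 5 of them had an unadjusted p-value under 0.05, where 10.9% of all genes were lower with such a p-value. The median log2 difference of the list was -2.03 against 0.04 over all genes. With quantile normalization this median was -0.42 and 3 genes passed. On leaving out each mouse in turn, 0 (without LFD replicate 3 or ob/ob replicate 2) to 16 (without HFD replicate 1) of them passed. Pla2g1b, a secreted phospholipase, differed by -2.49 (standard error 0.83) and the chymotrypsin gene Ctrc by -2.36 (standard error 0.90). The exception was Syt8, a synaptotagmin of the zymogen granule that was named after its values were seen, at 1.21. All 7 transcription factors of the acinar list were lower, 3 of them with an unadjusted p-value under 0.05, and between 0 and 7 when single mice were left out. Bhlha15 (Mist1), which sustains the secretory machinery, differed by -2.08 and the nuclear receptor Nr5a2 by -1.59. Ptf1a and Rbpjl, partners in the complex that drives enzyme genes, differed by -1.62 and -1.63, with unadjusted p-values of 0.0914 and 0.0972.

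The 10 genes whose pattern was most like that of Cckar had Pearson r between 0.997 and 0.998 over the 8 mice. They include the enzyme genes Pnlip (pancreatic lipase), Cpa1 (carboxypeptidase), Ctrb1 and Ctrl (chymotrypsins). Tff2, a trefoil peptide that had been listed with the gastric markers, ran with them at 15.04, 15.17 and 15.40 in LFD, 14.98, 12.99 and 11.12 in HFD, and 14.40 and 11.49 in ob/ob mice. The others were Rims4, Dusp26, Itih2, Cabp2 and 1810010D01Rik. Per kilobase of annotated exon, the mean level of Cckar (9.19 on the log2 scale) was higher than that of 97.1% of 14905 genes with a known length, and in LFD alone it was higher than that of 98.4%. The level of Cck per kilobase was 1.41, higher than that of 7.95% of genes.

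**Figure D2:**
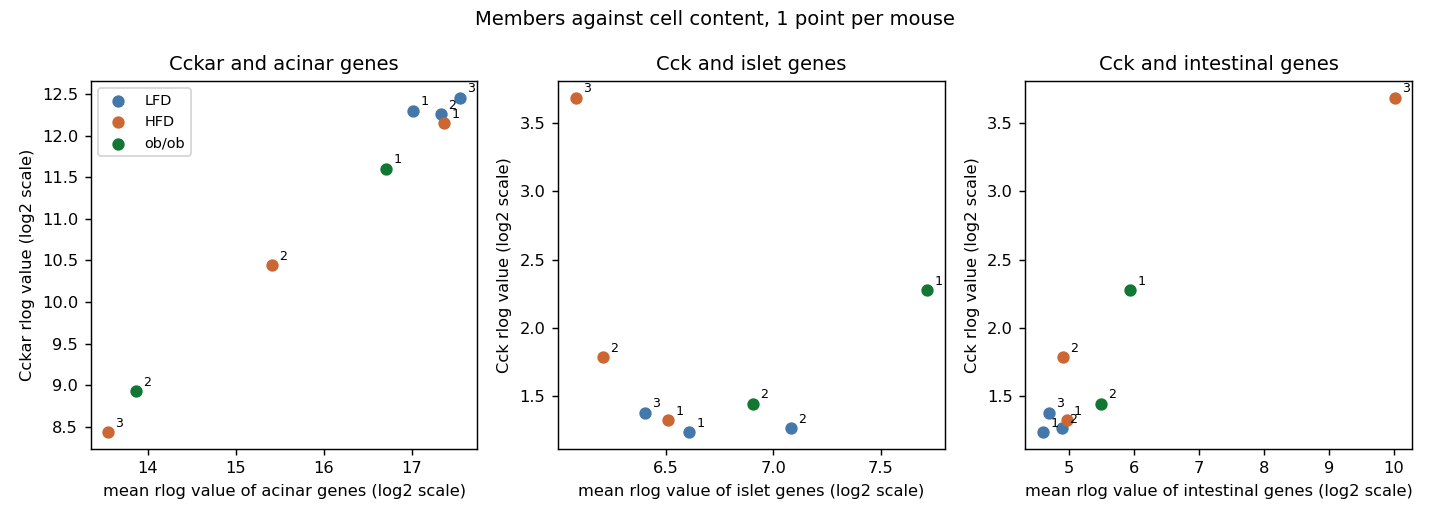
rlog value of Cckar against the mean of 30 acinar genes (left), and of Cck against the mean of 35 islet genes (middle) and of 8 intestinal genes (right), 1 point per mouse with its replicate number, all axes on the log2 scale. Cckar increases along the acinar mean with a slope of 0.99, and the highest Cck value stands at the lowest islet mean and the highest intestinal mean.

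Cckar was also compared with other receptors through which hormones and nerves act on the exocrine pancreas. Among all genes, 10.9% were lower and 14.5% higher in obese mice with an unadjusted p-value under 0.05. Of 11 analysed genes of 17 hormones and receptors on this list, 8 were lower. Such a p-value was found for 2 of these 8 and for 1 of the 3 that were higher. The count of lower genes rested on single mice, with 0 without LFD replicate 1 or ob/ob replicate 2, 1 without LFD replicate 2, LFD replicate 3 or HFD replicate 2, 4 without HFD replicate 1 and 5 without ob/ob replicate 1. Grpr, the receptor for gastrin-releasing peptide, had rlog values of 6.16, 5.97 and 5.80 in LFD, 5.79, 3.89 and 2.76 in HFD, and 5.32 and 2.96 in ob/ob. Its values did not overlap between obese and LFD mice by a narrow margin, and the difference was -1.83 (standard error 0.72, unadjusted p = 0.0322, adjusted p = 0.167 with limma). Vipr2, a receptor for vasoactive intestinal peptide, had values of 7.46, 7.34 and 7.53 in LFD, 6.77, 5.86 and 4.76 in HFD, and 7.03 and 4.55 in ob/ob. Obese mice were separate from LFD mice, at -1.65 (standard error 0.59, adjusted p = 0.148 with limma). The separation of Grpr and Vipr2, with all obese mice lower, is shared by 9.05% of all genes.

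Chrm3, the muscarinic receptor of acinar cells, was at 8.05, 7.95 and 7.91 in LFD, 8.05, 6.92 and 5.18 in HFD, and 7.76 and 5.71 in ob/ob, which amounts to -1.25 in obese mice (standard error 0.65). Here HFD replicate 1 was as high as the LFD mice. The somatostatin receptor gene Sstr2 differed by -1.16 (standard error 0.70). These 4 genes had Pearson r between 0.96 and 0.99 with the acinar mean over the 8 mice, with slopes of 0.85 for Grpr, 0.72 for Vipr2, 0.70 for Chrm3 and 0.70 for Sstr2, smaller than that of Cckar, although differences between slopes were not tested and rlog shrinks differences where reads are few. The remaining receptors had lower correlations with the acinar mean. The secretin receptor gene Sctr differed by -0.55 (r = 0.68), Vipr1 by -0.67 (r = 0.50), Chrm1 by -0.27 (r = 0.74) and Sstr3 by -0.33 (r = 0.20). Adcyap1r1, the receptor for PACAP, was at 0.54. Nts, the neurotensin gene, was higher in obese mice by 1.00 (standard error 0.36, unadjusted p = 0.0232, adjusted p = 0.150 with limma).

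**Figure D3:**
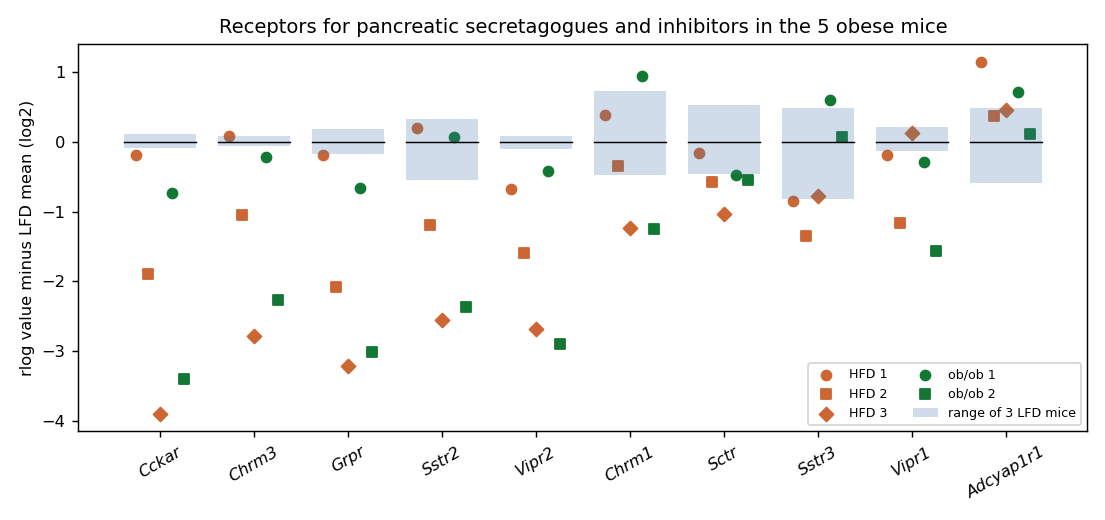
rlog value of 10 receptor genes in each of the 5 obese mice minus the mean of the LFD mice (log2), with the range of the 3 LFD mice as a shaded box. HFD replicate 3 and ob/ob replicate 2 lie at -3.90 and -3.41 for Cckar, and HFD replicate 1 lies within or near the LFD range for Cckar, Chrm3, Grpr and Sstr2.

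Downstream of the receptor, signalling genes were found in both directions, as were genes in general. Of all genes, 14.5% were higher and 10.9% lower in obese mice with an unadjusted p-value under 0.05 with limma. Of 18 genes of Gq and phospholipase C signalling, 13 were higher in obese mice, 5 of them with an unadjusted p-value under 0.05 with limma, and 2 of the 5 lower genes passed it. Arrb2, an arrestin that uncouples active receptors, was at 7.83, 7.47 and 7.51 in LFD, 8.08, 8.22 and 8.45 in HFD, and 8.46 and 8.75 in ob/ob. It differed by 0.83 in obese mice (standard error 0.17, adjusted p = 0.0918 with limma). Its lowest obese value was above its highest LFD value, as for 9.4% of all genes. Rgs16, which speeds the inactivation of Gq, differed by 1.03 (standard error 0.42). Plcb1, a phospholipase C, differed by -0.88 (standard error 0.33). Between 2 (without LFD replicate 3) and 9 (without HFD replicate 1) of the 18 genes passed as higher when single mice were left out.

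The list of calcium release and calcineurin held 25 genes. In obese mice 3 were higher and 3 lower with an unadjusted p-value under 0.05, near the shares of all genes (14.5% higher and 10.9% lower). The list median was 0.03, which turned to -0.06 with median centring. Without HFD replicate 1, 5 genes passed as higher. Rcan2, an inhibitor of calcineurin, differed by -1.43 in obese mice (standard error 0.39), with 7.96, 8.16 and 8.33 in LFD, 7.51, 6.33 and 5.51 in HFD, and 7.09 and 6.88 in ob/ob. Stim1, the calcium sensor of the endoplasmic reticulum, differed by -0.72. Cd38, which makes calcium-mobilizing nucleotides and is also a leukocyte surface protein, differed by 1.21, and Calm2 (calmodulin) by 0.77. The list of protein kinase C, protein kinase D and small GTPases had 16 genes. With an unadjusted p-value under 0.05, 1 was higher (Prkcd, 0.69) and 3 were lower, against 14.5% and 10.9% of all genes. The lower genes were Prkcz, Prkce and Rps6kb1, an S6 kinase outside these families, at -1.11, -0.91 and -0.80. Both counts were 5 without HFD replicate 1 and 4 without ob/ob replicate 1, and 0 genes were higher without LFD replicate 3 or ob/ob replicate 2. None of these signalling genes had an adjusted p-value under 0.05. Leukocyte and fibroblast markers were higher in the same mice: the mean of 14 leukocyte markers was 6.18 to 7.36 in LFD and 7.13 to 8.06 in obese mice, and that of 14 fibroblast markers 8.64 to 9.04 and 9.25 to 10.37. Cckar ran against both, with r = -0.830 for leukocyte markers (exact permutation p = 0.000198, adjusted p = 0.00238) and r = -0.914 for fibroblast markers (exact permutation p = 0.000893, adjusted p = 0.00357). The corresponding rho values were -0.976 (exact permutation p = 0.000397, adjusted p = 0.00476) and -0.952 (exact permutation p = 0.00114, adjusted p = 0.00685). Without the 2 farthest mice r was -0.958 and -0.903, and without HFD replicate 3 it was -0.781 and -0.938. The part of these cells in the signalling genes was not tested.

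**Figure D4:**
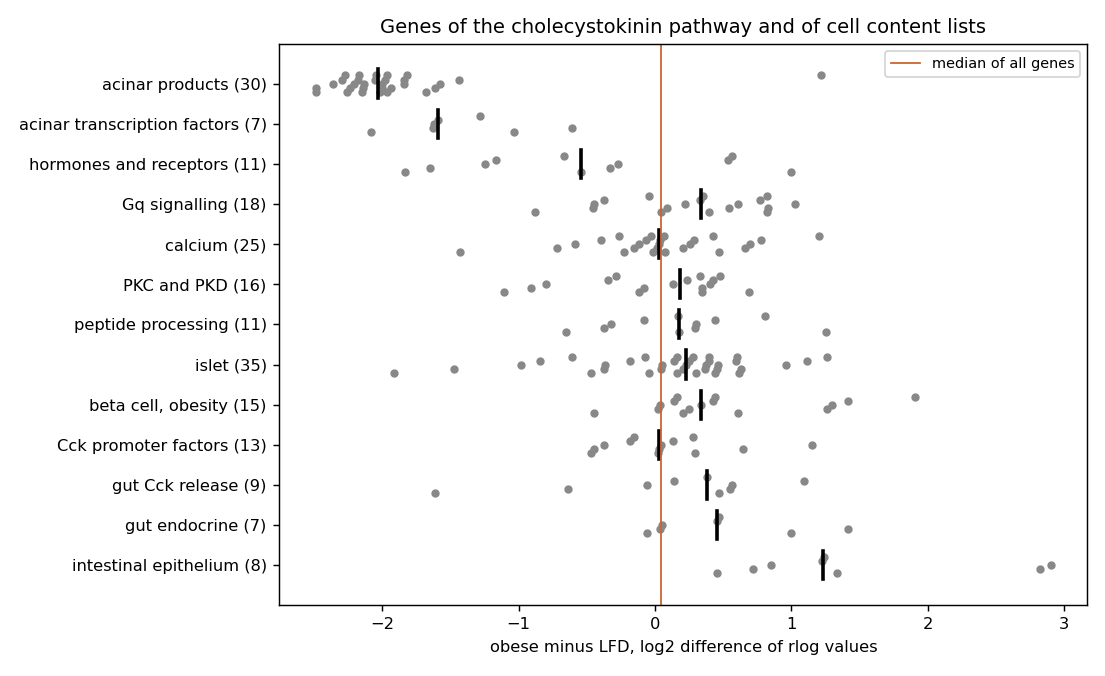
Log2 difference between obese and LFD mice of each gene of 13 lists (points, number of genes in parentheses), with the median of each list as a black bar and the median of all genes, 0.04, as a line. Acinar products lie around -2.03 (-0.42 with quantile normalization) and the medians of the 3 signalling lists lie between 0.03 and 0.34.

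The hormone gene itself was close to the bottom of the measured range. Cck had rlog values of 1.23, 1.26 and 1.38 in LFD replicates 1 to 3, 1.32, 1.78 and 3.69 for the HFD mice, and 2.27 and 1.44 for the ob/ob mice. Only 91 of the 15047 genes had a lower mean rlog value. HFD replicate 3 was 5.26-fold and ob/ob replicate 1 was 1.98-fold above the LFD mean on the rlog scale, HFD replicate 2 was 1.41-fold above it, and HFD replicate 1 lay within the LFD range. LFD mice averaged 1.29 ± 0.07 (SD, n = 3), HFD mice 2.26 ± 1.25 (SD, n = 3) and ob/ob mice 1.86 ± 0.59 (SD, n = 2), and no neighbours in this order differed beyond the spread of the higher group. At such values rlog shrinks differences most, and the number of reads behind them is unknown.

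Between obese and LFD mice, Cck differed by 0.77 (standard error 0.50, unadjusted p = 0.162, adjusted p = 0.347 with limma), and by 0.81 between the means of the 5 and the 3 mice (two-sided exact permutation p = 0.0714). HFD differed from LFD by 0.97 (standard error 0.56, adjusted p = 0.349 with limma), ob/ob from LFD by 0.57 (standard error 0.63, adjusted p = 0.615) and ob/ob from HFD by -0.40 (standard error 0.63, adjusted p = 1.00). HFD replicate 3 carried much of this: without it the difference was 0.41 for obese mice (adjusted p = 0.400 with limma) and 0.26 for HFD (adjusted p = 0.781), and that between ob/ob and HFD turned to 0.31. Without ob/ob replicate 1, ob/ob differed from LFD by 0.15.

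Since Cck is known from beta cells of obese mice, it was set beside the islet content. The mean of 35 islet genes was 6.61, 7.08 and 6.40 in LFD, 6.51, 6.21 and 6.08 in HFD, and 7.71 and 6.90 in ob/ob. The mouse with the most Cck, HFD replicate 3, had the lowest islet mean, and the mouse with the second highest Cck value, ob/ob replicate 1, had the highest. Across the 8 mice r was -0.220 (exact permutation p = 0.656, adjusted p = 0.656 over 12 relations) and rho was -0.310 (exact permutation p = 0.462, adjusted p = 0.504). It was -0.690 without LFD replicate 2 and ob/ob replicate 1, the mice farthest from the median, and 0.544 without HFD replicate 3. Cck minus the islet mean was -5.38, -5.82 and -5.03 in LFD, -5.19, -4.42 and -2.39 in HFD, and -5.44 and -5.46 in ob/ob. Both ob/ob mice lay within the LFD range on this measure, and HFD replicates 2 and 3 above it. Obese mice differed from LFD by 0.83 (standard error 0.62, two-sided exact permutation p = 0.357), and by 0.28 without HFD replicate 3.

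The counts of islet hormone genes depended on the obese group. In HFD against LFD mice, all 7 were lower, 0 of them with an unadjusted p-value under 0.05 with limma (8.35% of all genes were lower and 11.5% higher with such a p-value). In ob/ob against LFD mice, 5 were higher, 4 of them with such a p-value, and 2 were lower (7.18% of all genes lower and 11.6% higher). Between ob/ob and HFD mice, 6 were higher in ob/ob, 5 of them with such a p-value (1.63% of all genes lower and 2.28% higher). Iapp (amylin) differed by 1.62 in ob/ob and -0.36 in HFD mice against LFD, and Ins1 by 1.24 and -0.44. None of these had an adjusted p-value under 0.05. Over both obese groups, 5 hormone genes were higher and 2 lower, with 0 at an unadjusted p-value under 0.05, a count that was 3 higher and 1 lower with quantile normalization, 3 higher without LFD replicate 2 and 2 higher without ob/ob replicate 2. Ins2 had values of 11.62, 12.32 and 11.65 in LFD, 12.10, 11.35 and 11.11 in HFD, and 13.84 and 12.42 in ob/ob. Ins1 and Ins2 (insulin) differed by 0.40 and 0.46, Iapp by 0.63, Ppy (pancreatic polypeptide) by 0.61, Pyy by 0.05, Gcg (glucagon) by -0.61 and Sst (somatostatin) by -0.84 between obese and LFD mice. Of the 35 genes of the whole islet list, 29 were lower in HFD mice, 3 of them with an unadjusted p-value under 0.05, whereas 28 were higher in ob/ob mice, 13 of them with such a p-value, and 19 had such a p-value as higher when ob/ob mice were set against HFD mice. Over both obese groups, 2 genes were higher and 3 lower with such a p-value, against 14.5% and 10.9% of all genes. These counts became 6 and 0 without LFD replicate 2 and 0 and 0 without LFD replicate 3. The largest negative difference over both groups, -1.92, was that of Ero1lb, an oxidoreductase of the endoplasmic reticulum that acinar cells also express. Among 15 of 18 genes known to change in beta cells of obese or diabetic mice, 14 were higher in obese mice. An unadjusted p-value under 0.05 was found for 4 of them, against 14.5% of all genes as higher. This count ranged from 3 (without LFD replicate 3) to 5 (without HFD replicate 1) when single mice were left out. Tph1 and Tph2, which make serotonin, differed by 1.41 (standard error 0.37) and 1.26 (standard error 0.33). Tph1, also listed further on as a gut endocrine marker, was highest in HFD replicates 2 and 3, the mice with the lowest islet means. Serpina7 differed by 1.91 (standard error 0.53), and Aldh1a3, a retinoic acid enzyme that duct cells also express, by 1.30 (standard error 0.49). Gast, the gastrin gene of this list, was not analysed here.

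The enzymes that turn the Cck precursor into active peptide were examined next. Of 11 analysed genes, 1 was higher and 1 lower in obese mice with an unadjusted p-value under 0.05, near the shares of all genes (14.5% higher and 10.9% lower). In ob/ob alone 3 were higher and 1 lower (11.6% of all genes higher and 7.18% lower). In HFD alone 1 was higher and 0 lower (11.5% of all genes higher and 8.35% lower). Pcsk2 differed by 1.19 in ob/ob (unadjusted p = 0.0114 with limma) and by -0.60 in HFD mice, and the chaperone of this convertase, Scg5, by 1.40 (unadjusted p = 0.0079) and -0.52. The carboxypeptidase gene Cpe was at 8.48, 9.53 and 8.39 in LFD, 8.99, 10.08 and 10.54 in HFD, and 10.22 and 10.27 in ob/ob, and was higher by 1.26 in obese mice (standard error 0.38, adjusted p = 0.121 with limma), and the proprotein convertase Furin differed by -0.65 (standard error 0.24). Prohormone convertase Pcsk1 differed by -0.38, Pcsk2 by 0.30 over both groups, the amidating enzyme Pam by 0.18, and the tyrosine sulfotransferases Tpst1 and Tpst2 by 0.17 and -0.08. Pcsk5, another convertase, had the pattern most like that of Cck of all genes (r = 0.995 over 8 mice, 0.985 without HFD replicate 3). Its values were 5.64, 5.66 and 5.68 in LFD, 5.80, 6.30 and 7.89 in HFD, and 6.68 and 5.86 in ob/ob, the same order of the obese mice as for Cck.

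The genes of intestinal epithelium were also set beside Cck, because the duodenum, which lies against the pancreas, is the main source of Cck. All 8 analysed markers of 16 listed were highest in HFD replicate 3. Fabp1, a fatty acid-binding protein of enterocytes and hepatocytes, was at 4.05, 3.80 and 4.02 in LFD, 4.28, 3.71 and 13.31 in HFD, and 6.82 and 6.42 in ob/ob. Rbp2, the retinol-binding protein of enterocytes, was at 12.47 in HFD replicate 3, 6.17 and 5.98 in ob/ob, and between 3.45 and 3.89 in the other 5 mice. Lct (lactase) was at 11.09 in HFD replicate 3 and between 2.84 and 4.96 in the others. The gap from HFD replicate 3 to the next mouse was 6.49 for Fabp1, 6.29 for Rbp2, 6.13 for Lct, 4.08 for Tff3, 3.24 for Slc5a1 and 2.10 for Vil1, against 1.41 for Cck. The smallest gaps were those of the stem cell markers Olfm4 and Lgr5, 0.93 and 0.84.

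Across the 8 mice, Cck and the intestinal mean had r = 0.961 (exact permutation p = 0.00833, adjusted p = 0.0250 over 12 relations) and rho = 0.833 (exact permutation p = 0.0154, adjusted p = 0.0369). Without HFD replicate 3 and ob/ob replicate 1, the mice farthest from the median, r was 0.254, so the relation rests on these mice. Without HFD replicate 3 alone r was 0.776. In ob/ob the intestinal mean was 5.94 in replicate 1 and 5.49 in replicate 2, above the LFD range of 4.59 to 4.89, while HFD replicate 2, with the third highest Cck value, was at 4.90. The part of intestinal tissue in the Cck values was not tested.

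**Figure D5:**
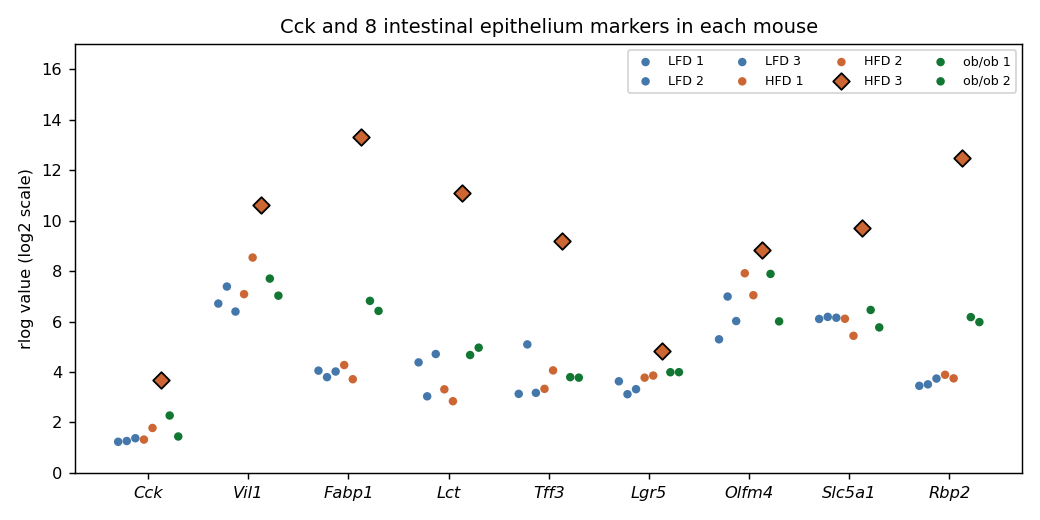
rlog value (log2 scale) of Cck and of 8 markers of intestinal epithelium in each mouse, with HFD replicate 3 as an outlined diamond. HFD replicate 3 is the highest mouse for all 9 genes, with 13.31 for Fabp1 and 3.69 for Cck.

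After Pcsk5, the genes most like Cck were Soat2, which esterifies cholesterol in enterocytes, the glutathione transferase Gsta1, the transporter Abcg2, Sema4g, Lpgat1, Anxa10, Paqr9, Ppp1r14d and Dcst1, with r from 0.965 to 0.995. For each of them HFD replicate 3 was the highest mouse, and without it r ranged from 0.789 to 0.983 over 7 mice. Gsta1 was at 2.32, 2.37 and 2.58 in LFD, 2.88, 3.17 and 7.90 in HFD, and 4.03 and 3.13 in ob/ob. Markers of other gut endocrine cells were not highest in the same mouse as a group. Of 7 analysed genes, 2 were highest in HFD replicate 3 and 3 in ob/ob replicate 1. The latter include Chga and Pyy, which are also on the islet list, and ob/ob replicate 1 had the highest islet mean. Islet and gut endocrine cells as sources of Chga and Pyy cannot be told apart here. Nts and Tph1 were the 2 higher in obese mice with an unadjusted p-value under 0.05, as were 14.5% of all genes. This count of 2 ranged from 1 to 3 when single mice were left out.

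Of 13 factors that bind the Cck promoter or specify Cck cells, 1 was higher and 1 lower in obese mice with an unadjusted p-value under 0.05. Among all genes, 14.5% were higher and 10.9% lower with such a p-value. The list median was 0.03, which turned to -0.06 with median centring. Without LFD replicate 3, 0 genes passed in either direction, and without ob/ob replicate 1, 2 passed as higher and 3 as lower. Bhlhe40, a clock repressor that binds E-boxes, was at 1.15 (standard error 0.40) and Atf1, a partner of CREB, at -0.45 (standard error 0.15). Etv1 and Nkx2-2 differed by 0.64 and -0.47. A list written for the release of cholecystokinin from the gut had 9 analysed genes, of which 3 were higher in obese mice with such a p-value. They include the fatty acid receptor Cd36 (0.57) and Stc1 (stanniocalcin, 1.09), for which no part in this release is shown here. The count of 3 was 1 without LFD replicate 3 or ob/ob replicate 1. Spink1, the trypsin inhibitor known as monitor peptide in rodents, belongs to the acinar list as well and differed by -1.62 (standard error 0.83). Of 8 analysed gastric markers, Hdc was higher (1.28) and Tff2 lower (-2.21) with an unadjusted p-value under 0.05. Without HFD replicate 1, 3 were higher, and without any 1 of the LFD mice, HFD replicate 2 or ob/ob replicate 2, 0 were lower. The mean of the gastric list was 4.38 to 5.28 in LFD and 4.40 to 5.73 in obese mice.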

How the data were processed

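RNA was sequenced from the pancreas of 8 mice grouped by diet or genotype as their titles state. The authors checked reads with FastQC, quantified Gencode M18 transcripts (GRCm38.p6) with Salmon 0.11.3, summed them per gene with tximport and applied rlog of DESeq2 1.22.2, so the deposited values are on a log2 scale. The filter that left 15047 genes is not given in the sources used here. Values ranged from 0.466 to 24.3. Counts were not used here, so depth is unknown and no counting error is given. Salmon shares reads of similar paralogs, such as the trypsin and insulin genes, by probability.

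Differences were computed with limma 3.58.1 (R 4.3.3) in 1 model that fitted every group mean over the 8 mice with a variance trend, and the step was tested on simulated data. Single values were tested by two-sided exact permutation with SciPy 1.17.1, which cannot go below p = 0.0357 for 5 mice against 3. Exact tests of 3 mice against 3 or 2 cannot go below 0.1 or 0.2 and were not run. Replicates are different animals. Lists of genes were written from general knowledge, and the members and lists were chosen with earlier results of these data known. Named genes are the members, the 4 genes of each list with the largest difference between obese and LFD mice, all hormones, receptors, processing, intestinal, gastric and gut endocrine genes, and the 10 genes most like each member; some genes under this rule are not reported here. Of the 18 planned relations with cell content, 12 were computed, as Cckbr was not analysed. Exon lengths come from Gencode M21. The alternatives are the variance without trend, only the groups compared, a minimum mean rlog value of 5, median centring, quantile normalization, array weights, the replicate block, acinar or islet covariates and leaving out each mouse. The exact test of each gene, the fits without the 2 mice of lowest acinar mean, and the alternatives for counts of lists were chosen after seeing the data.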

Additional observations from a re-analysis of the deposited data

Results flagged for a closer look

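The mean rlog value of the 8 intestinal markers was 10.01 in HFD replicate 3, far above the other 4 obese mice, whose highest value was 5.94. Its gap to the next mouse made up 0.798 of the range of the 5 obese mice, above Dixon's limit of 0.71, which chance passes in about 5% of groups. Cck, at 3.69 in the same mouse, had a gap of 0.597 of its range and stayed below the limit.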

How the results depend on the processing

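Among 162 repeats of the tests of Cck and Cckar and of their differences from cell content, 147 kept their direction and their side of the threshold, 9 changed direction and 6 had a p-value under 0.05 where the reported adjusted or exact p did not. One of these is the exact test of Cckar, whose p of 0.0357 is unadjusted, as is the 0.0371 of the limma fit. The cause was not tested unless stated. For Cckar, array weights gave -1.93 between HFD and LFD (adjusted p = 0.00714 with limma) and -1.99 between obese and LFD mice (adjusted p = 0.0224), and the exact test of obese mice gave -2.02. Between ob/ob and HFD, Cckar was 0.072 with the acinar covariate and 0.30 without both mice of lowest acinar mean, and Cck 0.72 without these mice. Cck between ob/ob and LFD was -0.0052 with the acinar covariate. Cckar minus the acinar mean was -1.18 with quantile normalization, in which the top-ranked genes of all mice get the same values. On leaving out each mouse in turn, Cckar ranged from -2.70 to -1.36 for obese mice, from -2.90 to -1.04 for HFD, from -3.41 to -0.73 for ob/ob against LFD and from -1.41 to 1.26 for ob/ob against HFD. Cck ranged from -0.88 to 0.31 for ob/ob against HFD. Cckar minus the acinar mean ranged from -0.17 to 0.017, the latter without LFD replicate 1. Cck could not be fitted under the minimum rlog mean of 5, which it misses. The number of genes called, 0 in each comparison, was 6656 (HFD) and 4286 (obese) with array weights, 2812 and 3326 without HFD replicate 1, 476 (obese) without ob/ob replicate 1, and for ob/ob against LFD 38 with only these groups, 89 without HFD replicate 1 and 61 without ob/ob replicate 1. It was 0 or 1 in all other fits. Same-numbered mice deviated from their group means with r between -0.281 and 0.592 over 7 pairs, over 0.1 in 4. For the 14 pairs with different numbers, r was between -0.592 and 0.440. The ob/ob deviations mirror each other by construction and the groups are small, so whether same-numbered mice belong together cannot be decided here. With the replicate block, the obese difference was -2.26 for Cckar (adjusted p = 0.0950 with limma) and 0.96 for Cck (adjusted p = 0.210), and 10 acinar genes were lower with an unadjusted p-value under 0.05 in place of 5. Of 40 counts of lists, 37 stayed within 1.5 times with median centring, 29 with quantile normalization and 30 with the block, as did 210 of 320 on leaving out mice. Unknown depth limits all statements on Cck.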

Other observations

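Lists of other cell types in the same libraries gave the following counts at an unadjusted p-value under 0.05 with limma between obese and LFD mice. Among all genes, 14.5% were higher and 10.9% lower with such a p-value. Of 14 fibroblast markers, 10 were higher and 0 lower, at a median log2 difference of 0.95, with Col1a1 at 2.17 and Col3a1 at 1.68, and 6 were higher without LFD replicate 3. Of 14 leukocyte markers, 9 were higher and 0 lower, at a median of 1.06, with the neutrophil gene S100a8 at 1.99 and the macrophage gene Adgre1 at 1.57. Of 15 duct markers, 2 were higher and 1 lower, with Spp1 (osteopontin) at 1.21, Krt7 at 1.12 and Muc1 at -1.26. The groups differed here. In HFD against LFD mice, 7 duct markers were higher and 0 lower (11.5% of all genes higher and 8.35% lower). In ob/ob against LFD mice, 1 was higher and 2 were lower (11.6% of all genes higher and 7.18% lower). Between ob/ob and HFD mice, 7 were lower in ob/ob (1.63% of all genes). Over both groups, 7 were higher and 3 lower without HFD replicate 1, and 1 higher and 4 lower without ob/ob replicate 1. Cckar and the duct mean had r = -0.195 (exact permutation p = 0.656, adjusted p = 0.656) over the 8 mice, and 0.172 without HFD replicate 3. Of 6 analysed nerve markers, 1 was higher, Tubb3 at 1.24, and 0 were higher without any 1 of the LFD mice, HFD replicate 2, HFD replicate 3 or ob/ob replicate 2. Of 10 adipocyte genes, 1 was higher (Lep, leptin, at 1.25) and 1 lower (Cfd, adipsin, at -1.91), at a median of 0.05, which turned to -0.03 with median centring and -0.07 with quantile normalization, and 3 were lower without ob/ob replicate 1. Lep RNA was at 7.27, 7.26 and 7.31 in HFD and at 8.12 and 6.78 in ob/ob. As ob/ob mice are leptin-deficient, this RNA is no measure of leptin in them.

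Cck had r = 0.567 with the leukocyte mean (exact permutation p = 0.0732, adjusted p = 0.146), 0.541 with the fibroblast mean (exact permutation p = 0.174, adjusted p = 0.235), 0.563 with the duct mean (exact permutation p = 0.176, adjusted p = 0.235) and -0.641 with the acinar mean (exact permutation p = 0.111, adjusted p = 0.190), over 8 mice and 12 relations. Without HFD replicate 3 these were 0.369, 0.437, 0.374 and -0.198. Cckar had r = 0.296 with the islet mean (exact permutation p = 0.497, adjusted p = 0.596) and -0.727 with the intestinal mean (exact permutation p = 0.0428, adjusted p = 0.103), which were -0.0151 and -0.472 without HFD replicate 3.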
